A study of Mus musculus with 4 samples.

Results

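The ends of the mouse autosomes were compared with the interior of the autosomes for CG methylation in sperm. A CG site was kept when it had at least 10 reads in each of 4 libraries. Sites within 3 Mb of the first CG position listed on chromosomes 1 to 19 formed the centromere side, and sites within 3 Mb of the last listed position formed the telomere side. The ends held 116974 of the 1917405 qualifying sites (6.10%), of which 49145 lay on the centromere side and 67829 on the telomere side. The other 1800431 sites are called the interior. Position and read depth chose the sites, and no methylation value was used.

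Methylation was measured by targeted bisulfite sequencing of captured genomic DNA (TGBS) in wild-type C57BL/6 mice. Swim-up sperm, the motile sperm collected from the top of the medium, gave 2 libraries. HRCS, the histone replacement-completed sperm, gave the other 2, and these were sperm heads pelleted through 82% Percoll after mild sonication of sperm from caudal epididymis and vas deferens. No source says that replicates came from separate animals, so the spread between libraries may be technical. The libraries held between 71379227 and 89403347 calls, counting 1 call for each read at each CG site it covers, and the methylation level of a site is its percentage of methylated reads.

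Mouse autosomes are telocentric, so that the centromere lies at one end of each chromosome and every chromosome has a single long arm. Beside the centromere lie satellite repeats, and at the far tip lie the telomeric repeats. CG methylation is a stable mark placed on cytosine by DNA methyltransferases. In sperm, most of the genome is highly methylated, whereas CpG islands, the dense clusters of CG sites found at many promoters, are mostly unmethylated. The level of a region therefore depends strongly on how dense its CG sites are, and every site was matched to interior sites of all autosomes with the same number of listed CG sites in its 200 bp window.

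The ends are those of the mm9 assembly as listed, not the repeat arrays themselves. The first listed CG position lay between 3000010 and 3000641 on every autosome, and the last lay between 61342420 on chromosome 19 and 197195360 on chromosome 1. Each side spanned 57 Mb in all. CG sites were listed at 8.21 per kb on the centromere side, 8.81 per kb on the telomere side and 8.43 per kb in the interior. The share of listed sites that qualified was 10.5% on the centromere side, 13.5% on the telomere side and 9.28% in the interior. All levels therefore describe the qualifying sites and not every CG site of a region. Qualifying sites had a median of 9 listed CG sites in their window on both sides and of 8 in the interior. Reads per site had medians of 25 to 33 on the centromere side, 25 to 31 on the telomere side and 23 to 31 in the interior. Mean reads per site were 38.6 to 51.1, 28.8 to 35.7 and 27.9 to 35.6 in the same order, so the means of the centromere side were higher. Matching on reads as well as CG sites gave differences from the interior of -1.98 points on the centromere side and -0.018 points on the telomere side, beside the values below.

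The centromere side was less methylated than the matched interior. Its mean level was 27.7% and 27.3% in the replicates of swim-up sperm, and HRCS replicates were at 27.6% and 27.5%. In the same order, the matched interior stood at 30.1%, 29.8%, 29.99% and 29.9%. The difference was -2.39, -2.49, -2.37 and -2.38 percentage points, with a mean of -2.41, and no library came near 0. The exact two-sided sign-flip permutation test over the 4 libraries gave p = 0.125, the smallest value that 4 libraries allow, so the threshold of 0.05 could not be reached. All libraries read the same sites, so this test measures the spread between libraries and not between regions of the genome. Single interior bins of 3 Mb, described below, had a standard deviation of 5.98 points. When methylated and total reads were pooled before division, the difference turned to 0.42 points. That value rested on a small group of very deeply read sites described below, and without sites of that depth the pooled difference was -2.59 points.

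Averaged over sites, the telomere side lay close to its matched interior over 3 Mb. Swim-up sperm was at 28.8% and 28.6% there and HRCS at 28.8% in both replicates, against 29.1%, 28.8%, 29.1% and 29.0% in the matched interior. The difference was -0.28, -0.26, -0.27 and -0.22 points, again with p = 0.125 in the exact sign-flip permutation test. Its direction depended on where the end was drawn: the difference was -4.82 points for ends of 1 Mb, 1.20 points for ends of 5 Mb and 3.69 points for ends of 10 Mb. With every chromosome weighted equally and matched within itself it was -2.62 points, against -4.62 points for the centromere side. Interior bins of 3 Mb, each matched within its chromosome and counted once, themselves had a median of -1.60 points. Matched within each chromosome but weighted by sites, the telomere-side difference was -0.90 points. It was -0.83 points without chromosome 11 and -0.015 points without chromosome 19. The difference was also positive with a minimum of 20 reads (0.18 points), with matching in windows of 1000 bp (0.0084 points) and against an interior over 10 Mb from both ends (0.20 points).

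The level on the telomere side, averaged over sites, changed steeply with distance. In the last 1 Mb the sites averaged 20.2% against 24.97% in the matched interior, a difference of -4.81 points with a range of -4.83 to -4.76 over the libraries. Between 1 and 2 Mb the difference was 0.33 points, and between 2 and 3 Mb it was 2.45 points. Further inward, between 3 and 6 Mb, it was 3.70 points. Between 6 and 10 Mb the level reached 38.1% against 32.8%, a difference of 5.25 points. The libraries lay furthest apart between 3 and 6 Mb, where they ranged from 3.64 to 3.77 points. All libraries read the same sites, so this spread does not measure how far stretches of the genome differ from each other. Single interior tiles of 1 Mb, described below, had a standard deviation of 8.14 points. These means weight chromosomes by their sites and use the interior of all autosomes, which includes the sites beyond 3 Mb. Set against the interior of its own chromosome and counted once, each chromosome gave another picture. Between 1 and 2 Mb, 13 of 19 chromosomes were lower than the matched interior and their median was -5.87 points. Of 1704 interior tiles of 1 Mb placed over 10 Mb from both ends, 63.2% were lower, with a median of -2.42 points. The count of 13 of 19 was thus close to the interior share. Between 2 and 3 Mb, 8 were lower and 9 higher, with a median of 1.86 points. Between 3 and 6 Mb, 8 were lower and 11 higher, with a median of 4.57 points. Of 746 interior bins of 3 Mb, 61.4% were lower, with a median of -1.60 points. Site-weighted means thus passed 0 after 1 Mb, and the median chromosome passed 0 after 2 Mb. Here 0 is the matched level, and the median interior tile itself lay below it.

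The centromere side was also low at its outer edge, and no stretch of steadily higher level followed. In the first 1 Mb the level was 27.1% against 31.9%, a difference of -4.77 points with a range of -4.91 to -4.64. Between 1 and 2 Mb the difference was -2.83 points, and between 2 and 3 Mb it was 0.56 points. Over chromosomes with at least 50 sites the medians of these classes were -6.21, -5.11 and -2.47 points. In the same order, 18 of 19, 11 of 17 and 9 of 17 chromosomes were lower. Interior tiles of 1 Mb were lower in 63.2% of cases, with a median of -2.42 points. Between 1 and 2 Mb the count was thus near the interior share. Between 2 and 3 Mb the count was below that share, and the median was near that of the tiles. From 3 to 10 Mb the difference was -0.45 points, with steps of 0.5 Mb on both sides of 0, such as 3.14 points from 3 to 3.5 Mb and -7.15 points from 4.5 to 5 Mb. Averaged over sites, the telomere side minus the centromere side was -0.04 points for ends of 1 Mb and 2.15 points for ends of 3 Mb. Over chromosomes, the median of the outermost 1 Mb was lower on the telomere side, at -8.86 points.

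**Figure D1:**
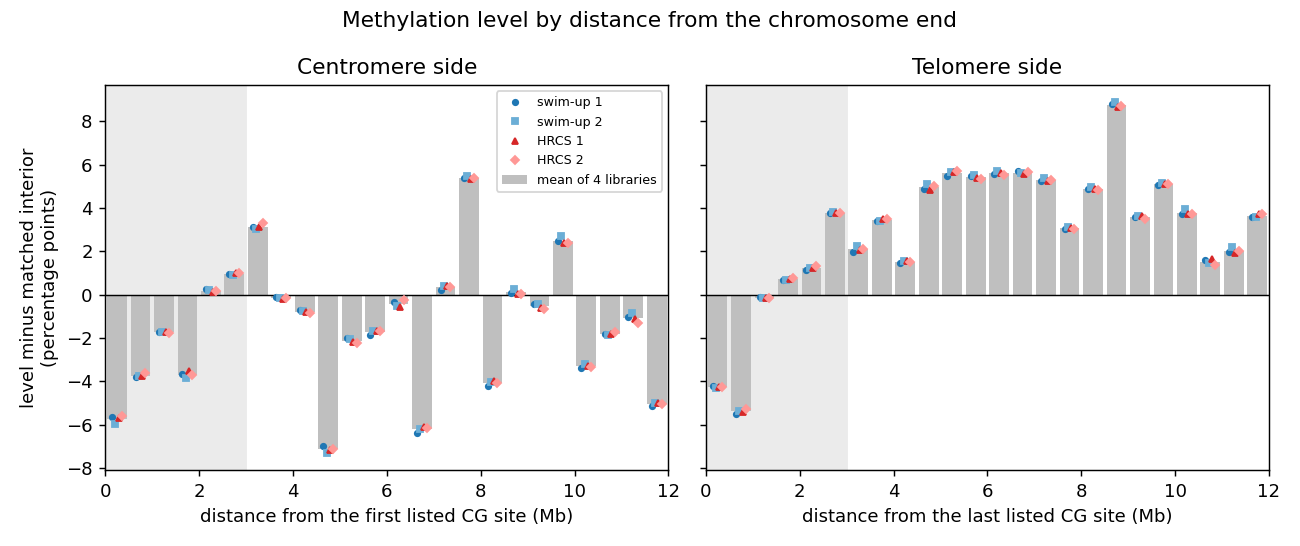
Methylation level minus the level of the matched interior, in percentage points, in 0.5 Mb steps from the first listed CG site (centromere side) and from the last (telomere side). Bars are the mean of the 4 libraries, symbols are single libraries, and the grey field marks the 3 Mb that define the ends. Both sides begin below 0, and the telomere side stays above 0 from 1.5 Mb to 12 Mb, whereas the centromere side varies about 0.

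The low level of qualifying sites in the outermost 1 Mb was shared by most chromosomes. On the centromere side, 18 of 19 chromosomes were lower than the matched interior of the same chromosome, with a median of -6.21 points, and chromosome 1 was the exception at 20.7% against 16.7%. On the telomere side, 17 of 19 were lower, with a median of -8.86 points. The exceptions were chromosome 7, at 33.8% against 27.0%, and chromosome 13, at 32.4% against 18.3%. Of 1704 tiles of 1 Mb placed over 10 Mb from both ends, 63.2% were lower than their matched level. Tiles with few qualifying sites were lower more often, 83.9% of those with fewer than 200 sites against 48.7% of those with at least 1000. The median centromere-side end ranked at 29.7% among these tiles and the median telomere-side end at 18.2%.

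The number of qualifying sites moved with the level, and the ends were therefore read within classes of site number. Among the 11 outermost stretches of 1 Mb with at least 1000 sites, 10 were lower, with a median of -3.65 points, against 48.7% of 569 interior tiles and an interior median of 0.18 points. With at least 500 but under 1000 sites, all 11 stretches were lower, with a median of -8.12 points, against 60.4% of 424 tiles and a median of -1.69 points. With at least 200 but under 500 sites, 8 of 9 were lower with a median of -9.69 points, against 70.6% of the interior tiles and a median of -4.73 points. With at least 50 but under 200 sites, 6 of 7 were lower with a median of -20.5 points, against 83.9% of the interior tiles and a median of -7.91 points. In that last class the count of lower stretches was at the interior share. In every class the outermost 1 Mb had the lower median, as a description of these regions with no test.

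The high stretch behind the long-arm tip was chosen for description after its values were seen. Between 3 and 10 Mb from the last listed site, 16 of 19 chromosomes were higher than the matched interior of the same chromosome, with a median of 3.83 points. The interior begins 3 Mb from the ends, so these stretches are part of the interior they were set against. In interior tiles of 7 Mb the share of higher tiles was 35.5%, and the median chromosome ranked at 89.0% among them. These stretches were rich in sites, and interior tiles with many sites were higher more often. With at least 2500 but under 5000 sites, 5 of 5 stretches were higher with a median of 3.83 points, against 33.3% of 78 tiles and a median of -1.49 points. With at least 5000 but under 10000 sites, 7 of 8 were higher with a median of 3.10 points, against 51.7% of 87 tiles and a median of 0.088 points. With at least 10000 sites, 4 of 6 were higher with a median of 5.09 points, against 54.3% of 35 tiles and a median of 0.52 points. The highest was chromosome 8, with 43.5% against 35.2%. Chromosomes 5, 10 and 15 were lower, and the lowest single library among them was chromosome 15 at -2.04 points. Over the same distances from the centromere side, 7 of 19 chromosomes were higher, with a median of -1.20 points.

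The low level of the centromere side was seen in windows of up to 14 CG sites, and denser windows were so little methylated in the interior that a drop of several points could not show in them. At the centromere side, sites with 1 or 2 listed CG sites in their window were at 72.9% against 77.9%, and sites with 6 to 9 were at 26.2% against 31.4%. The difference was -4.96 and -5.23 points in these classes and -3.57 points for 3 to 5 listed sites. With 10 to 14 listed sites the level was 8.19% against 8.99%, a difference of -0.80 points. With 15 to 19 listed sites the centromere side was at 3.05% against 2.70%, and with 20 or more it was at 1.43% against 1.39%. Windows as dense as CpG islands were thus almost unmethylated at the ends as in the interior. On the telomere side, the differences over 3 Mb lay between -1.20 and 0.43 points in all 6 density classes.

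In the outermost 1 Mb the same classes showed larger differences on both sides. For 6 to 9 listed sites the telomere side was at 18.3% against 31.1%, a difference of -12.8 points with a range of -12.9 to -12.7 over the libraries. For 3 to 5 listed sites it was at 50.7% against 61.9%, a difference of -11.2 points. On the centromere side these classes differed by -9.09 and -7.50 points. For 1 or 2 listed sites the order of the sides was the opposite, at -9.38 points on the centromere side and -4.71 points on the telomere side. For 10 to 14 listed sites the differences were -2.26 points on the centromere side and -2.45 points on the telomere side. For 15 to 19 they were 1.04 and -0.51 points, the latter at 2.15% against 2.65%. For 20 or more listed sites both sides were slightly higher than the interior, by 0.33 points on the centromere side and by 0.98 points on the telomere side. These means weight chromosomes by their sites. Of the 18526 telomere-side sites, chromosome 15 held 3423, at -14.6 points over all classes against its own interior. Chromosome 4 held 4047, at -1.17 points. Leaving either of them out was not tested.

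**Figure D2:**
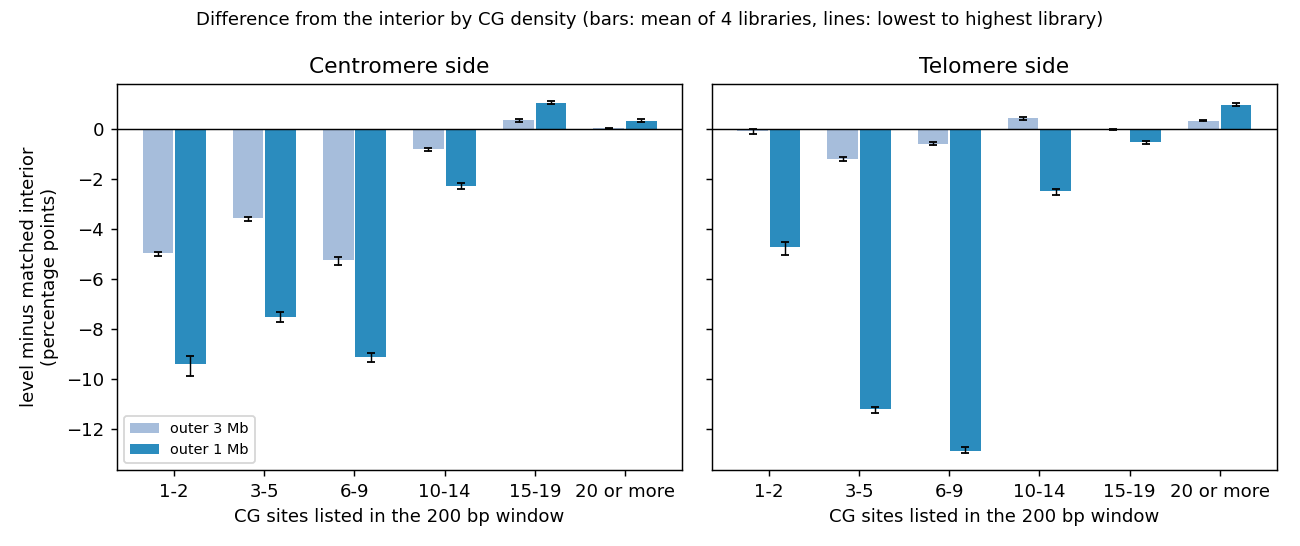
Methylation level minus the matched interior, in percentage points, by the number of CG sites listed in the 200 bp window, for ends of 3 Mb (light bars) and for the outermost 1 Mb (dark bars). Bars are means over sites and over 4 libraries, so chromosomes with many sites weigh more, and lines reach from the lowest to the highest library. In the outermost 1 Mb of the telomere side the largest differences are -11.2 and -12.8 points, in windows of 3 to 5 and of 6 to 9 CG sites.

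Fewer sites were highly methylated at the centromere side. The share of sites over 75% was 23.6% against 26.9% in the matched interior, a difference of -3.31 points, whereas the share at or below 25% was 1.80 points higher and the share in between was 1.51 points higher. On the telomere side these shares differed by -0.48, 0.052 and 0.43 points, and the second of them changed sign in 1 library. In the outermost 1 Mb, the share of sites over 75% was 22.0% against 28.8% on the centromere side and 16.6% against 22.2% on the telomere side. Sites of intermediate level took 9.63% against 6.06% in the first 1 Mb of the centromere side, and 5.82% against 4.90% in the last 1 Mb of the telomere side. The outer centromere side thus held more sites methylated in only part of the reads than its matched interior. It includes a deeply read stretch of chromosome 11, described below, where 111 of the 428 deepest sites were at intermediate levels. The share without that stretch was not computed.

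Single chromosome ends differed far more from each other than the libraries did. Each end of 3 Mb was set against the matched interior of its own chromosome. Of the centromere-side ends, 16 were lower and 3 were higher in all 4 libraries, with a median of -4.26 points and a range of -16.6 to 2.68. On the telomere side 12 were lower and 7 were higher, with a median of -2.66 points and a range of -13.1 to 4.62, and the telomere side of chromosome 13 was the only end whose sign varied between libraries. The gap between the highest and the lowest library had a median of 0.36 points on the centromere side and 0.31 points on the telomere side. Of 746 interior bins of 3 Mb, 61.4% were lower, so the 12 of 19 telomere-side ends are close to this background and the 16 of 19 centromere-side ends are above it.

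Among these interior bins the deviation had a 10th percentile of -9.63 and a 90th percentile of 5.28 points. The centromere-side ends of chromosomes 3, 4 and 9 and the telomere-side end of chromosome 17 fell below the 10th percentile, and no end exceeded the 90th. Bins with few sites were often as low: of the 94 interior bins with at least 100 but under 500 sites 92.6% were lower, with a median of -9.13 points and a 25th percentile of -13.3. The ends of chromosome 3 (-9.74 points, 305 sites) and chromosome 17 (-13.1 points, 319 sites) lay above that percentile. With at least 500 but under 1000 sites, where chromosome 9 falls with -16.6 points, 73.6% of 125 interior bins were lower, with a median of -5.50 points and a lowest value of -18.1. The number of sites again moved with the deviation, with Spearman's rho of 0.62 over the 19 centromere-side ends, 0.56 over the 19 telomere-side ends and 0.50 over the interior bins. Bins share libraries and capture design, and no test was made of these correlations. Among bins of at least 1000 but under 2000 sites, the 8 centromere-side ends were all lower, with a median of -4.31 points, against a median of -2.19 points in 192 interior bins, of which 65.6% were lower. With at least 2000 but under 4000 sites, 3 of 5 centromere-side and 4 of 7 telomere-side ends were lower, against 46.5% of 202 interior bins. With at least 4000 sites, 2 of 3 centromere-side ends were lower with a median of -1.23 points, whereas 2 of 6 telomere-side ends were lower with a median of 1.61 points, against 44.4% of 133 interior bins and a median of 0.52 points.

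**Figure D3:**
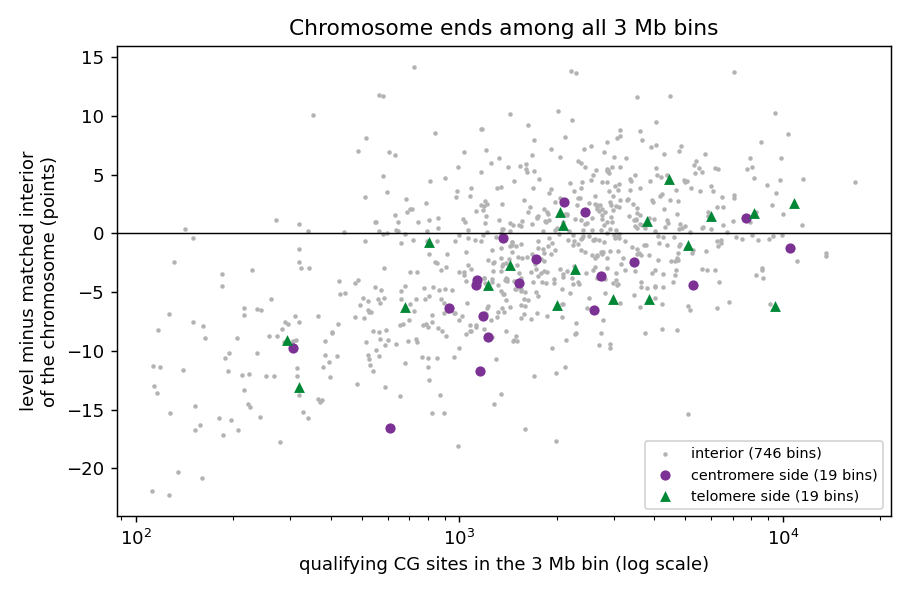
Level minus matched interior of the chromosome, in percentage points, for each 3 Mb bin with at least 100 qualifying sites, against the number of qualifying sites on a log scale. Grey dots are the 746 interior bins, circles the 19 centromere-side ends and triangles the 19 telomere-side ends. The ends lie within the cloud of interior bins, and 7 centromere-side and 5 telomere-side ends fall below its 25th percentile. The median end ranks at 32.8% among the interior bins on the centromere side and at 43.7% on the telomere side.

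Among centromere-side ends with at least 500 sites, the lowest lay on chromosomes 9, 4 and 14. The end of chromosome 3, with 305 sites, had a difference of -9.74 points. On chromosome 9 the level was 20.5% against 37.1% over 608 sites, and the difference lay between -17.2 and -15.9 points in the 4 libraries. Its lowest stretch, chr9:3000031-3500031, had levels of 25.2%, 23.9%, 26.8% and 26.5% against a matched level of 48.9%. In that stretch 54.0% of the 272 sites were at or below 25% and 5.88% were over 75%, so that much of it was at intermediate levels. On chromosome 4 the level was 27.1% against 38.8%, and chr4:4000010-4500010 was at 12.5% against 33.96%. On chromosome 14 the level was 10.9% against 19.8%, and chr14:4500098-5000098 was at 8.01% against 18.03%.

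The centromere-side ends of chromosomes 17, 2 and 11 were the only ones above their interior. On chromosome 17 the level was 43.7% against 41.0%, with a difference of 2.53 to 2.84 points over the libraries. On chromosome 2 it was 36.5% against 34.7%, and on chromosome 11 it was 35.9% against 34.6%. The highest stretches of these ends began 2 Mb inward on chromosomes 2 and 11 and 2.5 Mb inward on chromosome 17: chr17:5500204-6000204 was at 60.9% against 49.0%, chr2:5000164-5500164 at 62.7% against 42.8%, and chr11:5000034-5500034 at 46.6% against 37.9%. In the outermost 1 Mb all 3 chromosomes were lower than their interior, with 29.97% against 35.3% on chromosome 17, 19.2% against 25.5% on chromosome 2 and 35.4% against 36.4% on chromosome 11.

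On the telomere side the lowest ends with at least 500 sites lay on chromosomes 3, 15 and 14. Chromosome 3 was at 12.4% against 18.6% over 680 sites, and chromosome 14 was at 17.0% against 23.1%. Chromosome 15 was at 27.0% against 33.2% over 9465 sites, and its difference of -6.24 to -6.13 points was the most precise of the 3. There, the stretch chr15:102494820-102994820 was at 10.5%, 10.1%, 10.4% and 10.3% against 25.2%, and 88.4% of its 2282 sites were at or below 25%. This stretch alone held 25.4% of all qualifying sites between 0.5 and 1 Mb from the long-arm tips.

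The highest telomere-side ends lay on chromosomes 7, 11 and 8. Chromosome 7 was at 32.3% against 27.6%, and its stretch chr7:151024403-151524403 was at 53.6% against 32.6%. Chromosome 11 held the most sites of any end, 10827, and was at 29.5% against 27.0%. Its stretch chr11:119843563-120343563 was at 36.6% against 27.7%. Chromosome 8 was at 41.8% against 39.96%, with a high stretch, chr8:129738811-130238811, at 78.9% against 61.1%. In the last 1 Mb, chromosome 11 stood at 22.9% against 28.6% and chromosome 8 at 14.6% against 27.4%, so their high values came from further inward, whereas chromosome 7 was high in its last 1 Mb as well.

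**Figure D4:**
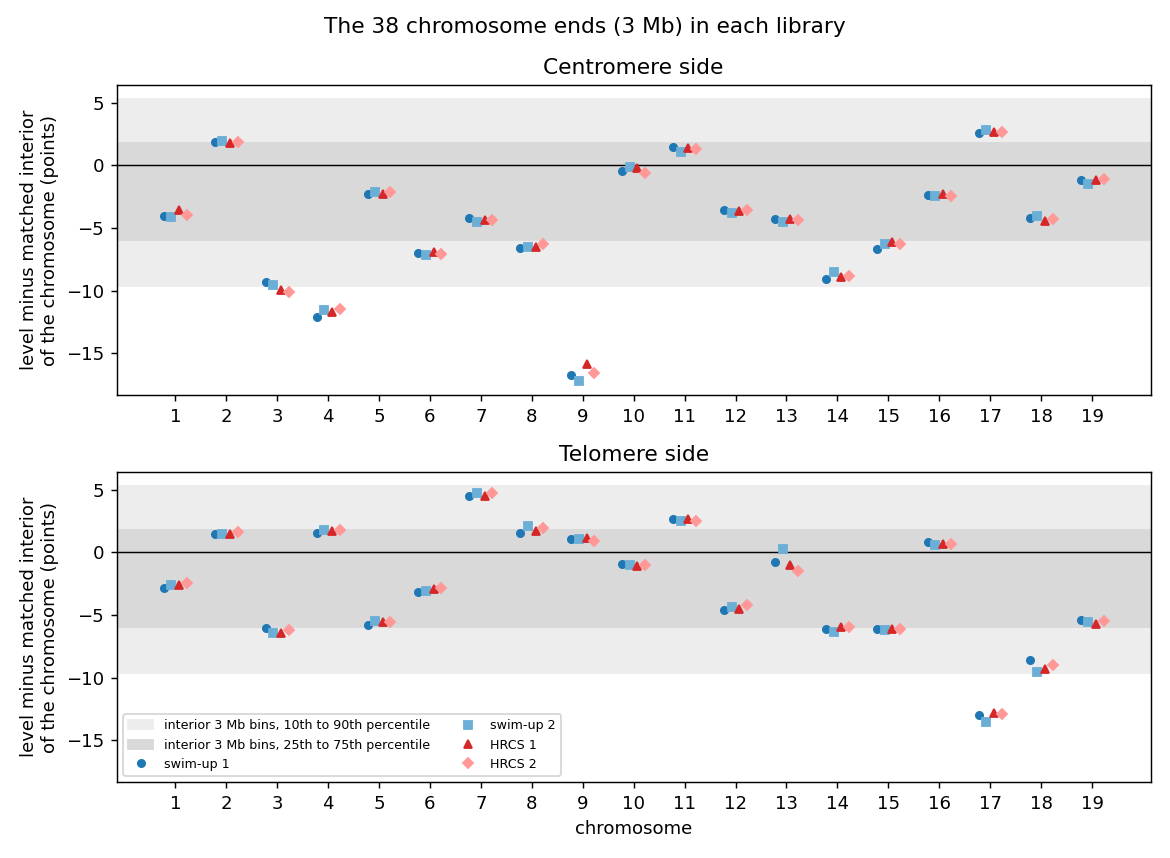
Level minus matched interior of the same chromosome, in percentage points, for the centromere-side and telomere-side 3 Mb of each autosome. Symbols are the 4 libraries, and grey fields give the percentiles of the 746 interior bins. The libraries of 1 end lie close together, with the widest gaps on the centromere side of chromosome 9 and the telomere side of chromosome 13.

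The centromere-side end of chromosome 11 also held an unusual concentration of reads. Sites with a mean of over 286.75 reads, the deepest 0.1% of all sites, made up 1.09% of the centromere side, 0.0708% of the telomere side and 0.0741% of the interior. Of the 534 such sites on the centromere side, 435 lay on chromosome 11, and 428 of these fell within 94.0 kb at chr11:3004264-3098289. The stretch held 723 qualifying sites with a median of 465 reads, and their mean level was 58.5%, 56.9%, 57.8% and 58.1% in the 4 libraries. The 428 sites chosen for their depth had a median of 956 reads and a level of 64.6%, 63.4%, 64.3% and 64.4%. Of the 428 sites, 235 were over 75%, 111 at intermediate levels and 82 at or below 25%. These 428 sites took 21.2% of all calls of the centromere side.

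The strand of the calls differed at these sites too. Between 69.7% and 71.4% of their calls lay on the minus strand, against 89.6% to 90.1% for the centromere side without its deepest sites, 93.3% to 93.9% for the telomere side and 92.4% to 92.7% for the interior. With the deepest sites, the centromere side was at 83.9% to 85.1%. The part of these reads in the results was tested only by leaving sites or chromosomes out, and whether copies of the sequence elsewhere contribute reads was not tested. Leaving chromosome 11 out, the difference from the matched interior was -3.18 points on the centromere side and -0.83 points on the telomere side, and leaving chromosome 19 out it was -2.85 and -0.015 points.

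Windows with many CG sites and a high level were rare at the ends. Among windows of 20 or more listed CG sites, 0 of 470 on the centromere side, 1 of 702 on the telomere side and 11 of 17059 in the interior were over 75% in all 4 libraries. The 1 window, chr11:119036001-119036200 on the telomere side with 21 CG sites, was at 88.3%, 86.6%, 85.3% and 89.4% from 842 to 1642 calls. The next densest on that side were chr9:121672001-121672200, with 81.3% to 92.8%, and chr11:120141801-120142000, with 97.1% to 98.4%. On the centromere side the densest were chr11:3093001-3093200 and chr11:3093401-3093600, both inside the deeply read stretch with at least 10856 calls per library, and chr2:5004601-5004800, with 17 CG sites at 87.7%, 85.3%, 90.6% and 84.2%. Among windows of 10 to 19 listed CG sites, the class of 5 of these 6 windows, 45 of 1227 on the centromere side and 93 of 1671 on the telomere side were over 75% in all libraries.

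Windows of 3 to 9 listed CG sites were over 75% in all libraries in 38.6% of cases on the centromere side, 43.2% on the telomere side and 45.3% in the interior. For 10 to 19 listed sites the shares were 3.67%, 5.57% and 5.10%.

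The comparison of HRCS with swim-up sperm asked whether both fractions carry the same methylation at the ends. Swim-up sperm had a mean of 27.5% ± 0.268 (SD, n = 2) at the centromere side, and HRCS had 27.6% ± 0.0616 (SD, n = 2), a difference of 0.11 points with p = 1 in the exact permutation test. At the telomere side the means were 28.7% ± 0.183 (SD, n = 2) and 28.8% ± 0.0257 (SD, n = 2), a difference of 0.074 points, also with p = 1 in the exact permutation test. The smallest p that 2 libraries against 2 allow is 0.333. Without swim-up replicate 2 the differences were -0.080 and -0.056 points, so this library decided their sign. Beyond the matched interior, HRCS exceeded swim-up sperm by 0.068 points on the centromere side and by 0.029 points on the telomere side, with p = 0.333 and p = 0.667 in the exact permutation test. With 1 library left out these values ranged from 0.020 to 0.12 and from 0.0065 to 0.051 points.

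Taken end by end, HRCS minus swim-up sperm lay between -0.48 and 0.81 points on the centromere side and between -0.88 and 0.47 points on the telomere side. The 2 libraries of one fraction lay wholly above or below the other 2 at 6 of 19 ends on each side, against 23.1% of the interior bins. None of the 38 ends passed the adjusted p in limma's test over 784 bins, and 2 had an unadjusted p under 0.05, 1 on each side, against 3.32% of all bins. Of all bins, 0 passed the adjusted p of 0.05 and 26 had an unadjusted p under 0.05. The lowest adjusted p among the ends was 0.999 in limma's test.

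Among windows of 200 bp with at least 3 qualifying sites, edgeR's quasi-likelihood test called 1 of 5618 centromere-side windows and 0 of 7902 telomere-side windows, against 7 of 229337 windows or 0.00305% in all. An unadjusted p under 0.05 was found for 231 centromere-side windows (4.11%) and 365 telomere-side windows (4.62%), against 4.50% of all windows. With the replicate block edgeR called 2 centromere-side and 0 telomere-side windows, against 8 of 229337 in all. In a separate test without the block, limma on window levels called 0 windows on either side and 0 in all, with an unadjusted p under 0.05 in 313 (5.57%) and 485 (6.14%) windows of the sides and in 14414 (6.29%) of all windows.

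The called window, chr19:3935601-3935800, held 9 listed CG sites, all of which qualified. It stood at 0.741% and 2.00% in swim-up replicates 1 and 2, and HRCS replicates 1 and 2 stood at 29.9% and 39.4%, from 158 to 278 calls. The adjusted p of edgeR was 7.09e-07, and between 2.96e-05 and 0.0154 with 1 library left out. Both HRCS libraries lay above both swim-up libraries, and the fractions differed by 33.3 points. Restricted to sites that every library read 20 times or more, the difference was 62.3 points. Only the sites at 3935767, 3935773 and 3935781 remained. Their levels, 53.3% to 70.2% in HRCS, were the highest of the window in both HRCS libraries.

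Among the qualifying CG sites plotted in and around the window, the difference lay in 10 neighbouring sites. The 3 outer sites of the window, at 3935635, 3935646 and 3935703, were at 0% in both HRCS libraries. From 3935722 to 3935828, over 107 bp, each of 10 successive qualifying sites was at 20.0% to 68.0% in HRCS replicate 1 and at 47.4% to 70.2% in HRCS replicate 2. In the swim-up libraries these sites were at 0% and at 0% to 7.69%. The last 4 of them lay in the next window, which edgeR called with the replicate block, with a level of 1.83% and 0% for swim-up sperm and of 17.7% and 19.8% for HRCS. The other 23 qualifying sites plotted averaged 2.01% and 1.42% for swim-up sperm and 1.32% and 0.787% for HRCS, so levels around the stretch were low in all libraries. Mean reads per site in the stretch were 22.7 and 17.3 for swim-up sperm and 21 and 31.7 for HRCS. At the other sites they were 23.7, 17.7, 26.6 and 17.8 in the same order. Only HRCS replicate 2 was thus read more deeply in the stretch than around it.

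The strands of the 10 sites differed between the fractions as well. In swim-up sperm, 9 of 227 calls and 10 of 173 calls lay on the plus strand, and none of these was methylated. In HRCS, 59 of 210 and 126 of 317 calls lay on the plus strand, or 28.1% and 39.7%, and 53 and 96 of them were methylated. On the minus strand, methylated calls made up 0% and 1.84% for swim-up sperm, against 29.8% and 46.1% for HRCS. More methylated calls in HRCS were thus seen on both strands, and the share of plus-strand calls was also higher in HRCS. Over the interior, 92.4% to 92.7% of calls lay on the minus strand. At these sites the minus-strand share was 96.0% and 94.2% in swim-up sperm but 71.9% and 60.3% in HRCS. The strand shares of the HRCS libraries were thus unlike those of most sites, and what part this has in the difference was not tested. A read spans several of these sites, so the calls are not independent molecules. The borders of the stretch were chosen after its values were seen.

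**Figure D5:**
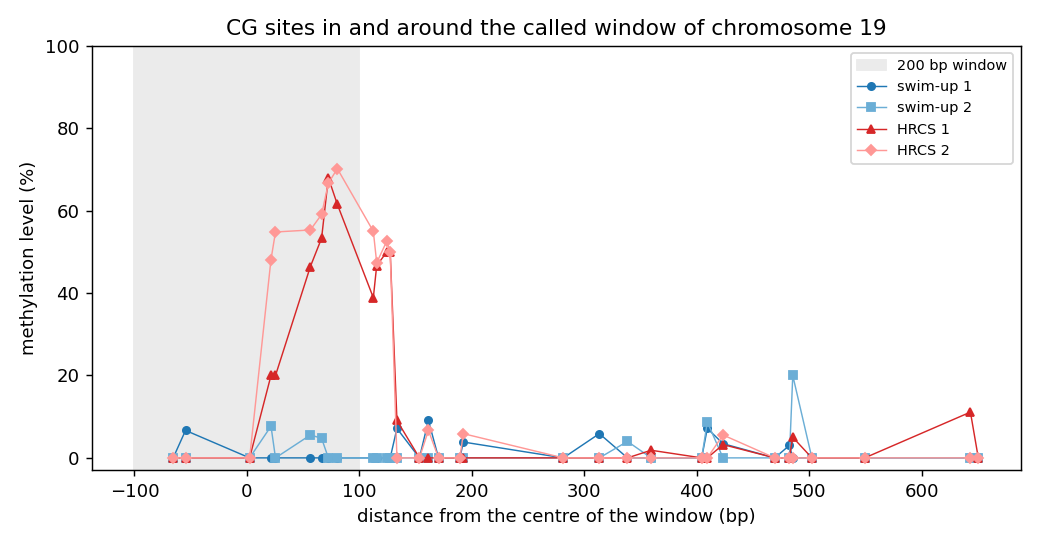
Methylation level in percent of each qualifying CG site in and around the called window of chromosome 19, by distance in bp from the window's centre, in the 4 libraries. The grey field marks the 200 bp window. The HRCS libraries rise to between 20.0% and 70.2% over 10 neighbouring sites, where the swim-up libraries stay at or below 7.69%.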

How the data were processed

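The authors mapped single TGBS reads to mm9 with Bmap and deposited, per library, the counts of methylated and of all reads for each CG site and strand, without normalization. The columns carry no names, and the one that never exceeded the other was taken as methylated reads. No removal of duplicate reads is named. Strands were added together, and sites with 10 or more reads in all libraries were kept. Reads span several sites, and PCR copies are not independent molecules. At 10 reads, 1 read moves a site by 10 points.

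Levels were averaged over sites in Python 3.11.15 (numpy 2.4.6, pandas 2.3.3, scipy 1.17.1, matplotlib 3.10.9). Each side was matched by direct standardization on the number of listed CG sites per 200 bp window, joined from 30 upward. Windows were tested in R 4.3.3 with edgeR 4.0.16 and bins with limma 3.58.1, with Benjamini-Hochberg adjustment over all autosomal windows or bins and a threshold of 0.05.

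The 3 highest and 3 lowest ends per side with at least 500 sites, their most deviating 0.5 Mb stretch with at least 100 sites, called windows, and the 3 densest windows over 75% were named. The regions and lists were chosen with earlier results of these data known. The annotation used here is of another build, so genes and sequences were not analysed here.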

Additional observations from a re-analysis of the deposited data

How the results depend on the processing

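The difference of the centromere side from the matched interior kept its direction under 21 of 22 alternatives, between -4.78 points with ends of 1 Mb and -0.82 points with ends of 10 Mb, and turned to 0.42 points with pooled calls. Against an interior over 10 Mb from both ends this difference was -1.95 points. That of the telomere side turned to 0.18 points with at least 20 reads, 1.20 points with ends of 5 Mb, 3.69 points with ends of 10 Mb, 0.0084 points with matching in windows of 1000 bp and 0.20 points against an interior over 10 Mb from both ends. It was -0.018 points with matching on reads too and -0.015 points without chromosome 19. With no matching it was -2.50 points, against -3.72 points on the centromere side. With at least 5 reads it was -0.48 points, and with matching in windows of 100 bp it was -0.53 points. In 200 bp windows with at least 3 qualifying sites it was -0.65 points. With every chromosome weighted equally it was -2.62 points, and -4.62 points on the centromere side, beside a median of -1.60 points over interior bins of 3 Mb. The telomere side minus the centromere side turned to -0.0403 points with ends of 1 Mb and -0.73 points with pooled calls. Without sites of very high coverage the pooled values were -2.59, -0.066 and 2.52 points. Leaving out chromosomes 11 or 19, the distant interior and this last setting of pooled calls were chosen after seeing the data.

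HRCS minus swim-up sperm lay between -0.080 and 0.30 points on the centromere side and between -0.056 and 0.20 points on the telomere side with 1 library left out, and was 0.37 and -0.44 points with pooled calls. Beyond the matched interior the telomere side turned to -0.0092 points with at least 20 reads and -0.074 points with pooled calls, which gave 0.56 points on the centromere side. Replicate numbers only name the libraries: with them as a replicate block, edgeR called 2 centromere-side windows, against 1 without the block. limma on window levels, another test without the block, called 0. With 1 library left out, edgeR called 2 to 7 windows in all and 0 to 1 telomere-side windows, the 1 without swim-up replicate 2, where it called 7 in all, with the lone library assumed to vary like the other fraction. With 2 libraries per fraction and 4 in all, the exact tests could not pass 0.05.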
